A study of Homo sapiens with 24 samples.

Results

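Transcripts of 10 apolipoprotein genes, APOA1, APOB, APOC1, APOD, APOE, APOH, APOL1, APOL2, APOL6 and APOM, were followed across 24 RNA-seq libraries of AGS cells. They were taken by gene symbol from a table of 23368 genes. The list was drawn up from the higher APOA1 level in all 5 treatments, so the comparisons with control below describe how the members were chosen and carry no test. Of the 10 members, 9 passed the filter on low counts that left 13947 genes for testing. AGS is an established human gastric adenocarcinoma line, labelled wild type, and every group was harvested after 24 h. Control cells are labelled as untreated, and the labels do not say whether they received vehicle. Single agents were PI103 at 0.7 µM, an inhibitor of PI3 kinases and mTOR, PD0325901 at 0.035 µM, an inhibitor of MEK, and (5Z)-7-oxozeaenol at 0.5 µM, an inhibitor of TAK1 that is called oxozeaenol below. The other two groups received PI103 with oxozeaenol or PI103 with PD0325901, each agent at 50% of its concentration alone. Each group had 4 libraries, described as biological replicates, whose number is given as a batch. All come from 1 cell line, so a p-value measures the spread between cultures of that line. The main fit has no term for the batch, so differences between batches are part of that spread.

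Apolipoproteins are the protein parts of lipoprotein particles, which carry cholesterol and triglycerides between cells and organs, and the liver and small intestine make most of them. APOA1 is the main protein of high-density lipoprotein and takes up cholesterol exported by the transporter ABCA1. APOB is the structural protein of chylomicrons and of very-low-density and low-density lipoprotein, and APOE is a ligand through which cells take up lipoprotein particles. The APOL proteins form a separate family, found mostly inside cells and inducible by interferon. APOL1 is also secreted and is known for lysing trypanosomes.

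Counts in genes were 38.1 to 84.2 M per library. All 8 epithelial markers examined, among them EPCAM and the keratins KRT8 and KRT18, exceeded 1 CPM (counts-per-million of the scaled library size) in every group, and their summed level was 5230 to 8420 CPM. Of 8 hepatocyte markers only 2 had counts enough for testing, with sums of 1.6 to 3.56 CPM in control, 2 to 3.17 with PI103, 4.81 to 5.46 with PD0325901 and 3.35 to 4.28 with oxozeaenol, and 2.92 to 4.14 and 2.62 to 3.68 in the oxozeaenol and PD0325901 combinations. ALB, the liver's albumin gene, had a mean of 0 CPM in 5 groups and 0.00384 CPM with PI103. Of 8 enterocyte markers 4 were testable, with sums of 356 to 395 CPM in control, 408 to 438 with PI103, 556 to 738 with PD0325901 and 447 to 531 with oxozeaenol, and 473 to 546 and 543 to 650 in the combinations in the same order. Of 8 stromal and blood markers 3 were testable, with sums of 14.8 to 18.2 CPM in control, 33.5 to 35.1 with PI103, 19.5 to 24.8 with PD0325901 and 9.43 to 11.2 with oxozeaenol, and 9.96 to 12.2 and 23 to 26.2 in the combinations. The enterocyte sums thus lay above control without overlap in all 5 treatments, and the hepatocyte sums with PD0325901 only. Gene by gene, 2 or 3 of the 4 testable enterocyte markers were higher in each treatment at an adjusted p under 0.05, and 0 were lower. None of the 4 was higher in all 5 treatments. Of all genes 25.7% to 32.2% were higher at that threshold. The stromal and blood sums lay above control without overlap in the PI103, PD0325901 and PI103 with PD0325901 groups. They lay below it in both groups with oxozeaenol. In both, 1 of the 3 testable markers was lower and 1 was higher at an adjusted p under 0.05. The higher one had under 10 counts in every control library. Only 1 or 2 of the stromal and blood markers exceeded 1 CPM in a group. The part of these marker levels in the results was not tested. Replicate 2 of PD0325901 was the highest library of its group for 7 of the 9 members, replicate 2 of PI103 with PD0325901 was so for 6 of 9, and replicate 1 of PI103 with oxozeaenol for 6 of 9. These counts include APOH. The share of all genes highest in each library was not counted, so nothing particular to the members is read from them.

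In untreated cells APOC1, a small exchangeable apolipoprotein, had the highest level per length of the members. Its mean was 48.1 RPKM (counts-per-million per kilobase of annotated exon). APOL2 followed at 4.62 RPKM, APOD at 1.41, APOL1 at 0.811, APOM at 0.778, APOA1 at 0.389, APOE at 0.142, APOL6 at 0.14 and APOH at 0.0287 RPKM. APOB had 5 counts in replicate 2 of oxozeaenol and 0 in the other 23 libraries, and it was left out of all fits. APOH had only 1 to 6 counts in each control and each PI103 library. It passed the filter through its other groups, so its values are a description and it is left out of the tests and counts below, which cover 8 members.

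**Figure D1:**
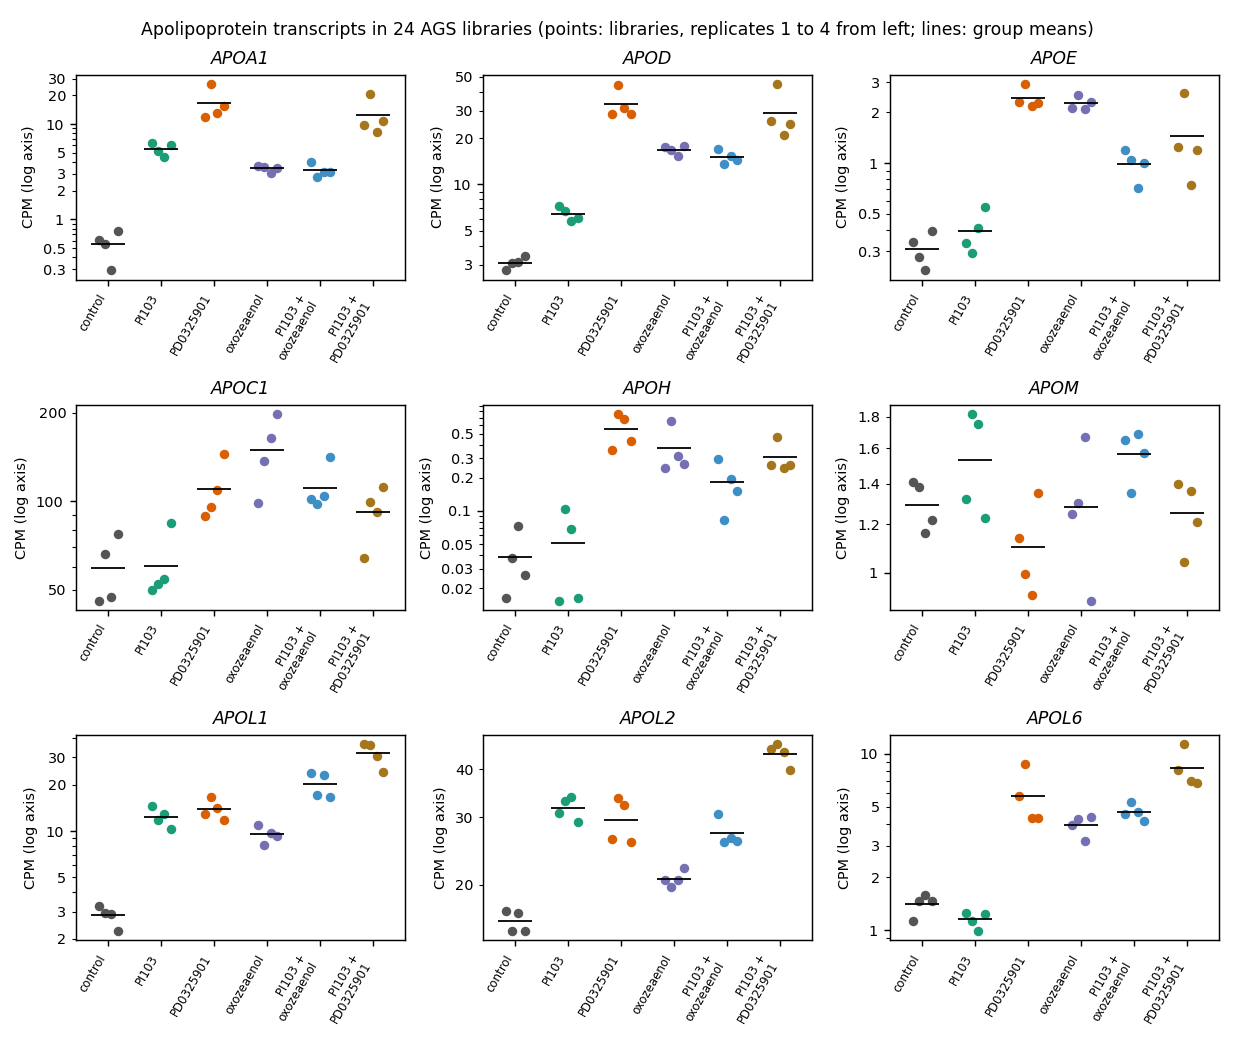
Level of the 9 testable members in each library, in counts-per-million (CPM, log axis, with its own range in each panel), by group; each point is 1 library and each line a group mean, n = 4. APOA1, APOD, APOL1 and APOL2 lay above all control libraries in each of the 5 treatments, while APOM overlapped with control in each.

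APOA1 lies at chr11:116835751-116837950 on the minus strand of GRCh38. It had 0.615, 0.559, 0.293 and 0.748 CPM in the control libraries, and 6.36, 5.27, 4.49 and 6.06 CPM with PI103. The PD0325901 libraries held 12.0, 26.4, 13.1 and 15.5 CPM, the highest set. With oxozeaenol the values were 3.62, 3.57, 3.09 and 3.49 CPM. All of these treated libraries lay above the control range. In bulk RNA a change in the share of cells that express a gene and a change in RNA per cell cannot be told apart. With PI103 and oxozeaenol together APOA1 had 4.0, 2.76, 3.18 and 3.14 CPM, a range that overlapped that of oxozeaenol alone. With PI103 and PD0325901 together it had 9.72, 20.8, 8.16 and 10.7 CPM, which overlapped PD0325901 alone. In the fit over all libraries (edgeR) the log2 difference from control was 3.33 ± 0.313 (SE) with PI103, 4.93 ± 0.319 with PD0325901 and 2.65 ± 0.317 with oxozeaenol. In the combinations it was 2.57 ± 0.316 where oxozeaenol was the partner of PI103 and 4.49 ± 0.316 where PD0325901 was. Without replicate 2 of the group concerned, the PD0325901 value was 4.64 and that of its combination 4.11. The order of group means was thus control, PI103 with oxozeaenol, oxozeaenol, PI103, PI103 with PD0325901 and PD0325901. Exons of APOA1-AS on the opposite strand cover 8.64% of the APOA1 exon length, and whether counting used strand is not given in the sources used here.

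Comparisons among treated groups set no control mean against another group, and here APOA1 differed between agents. The control libraries still entered the filter, the scaling and the estimate of spread. These tests are thus not independent of them, and leaving out 1 control library ended some of the calls given below. Each adjusted p below is from edgeR's quasi-likelihood F test with Benjamini-Hochberg adjustment over 13947 genes, and n is 4 against 4. APOA1 was 3.02-fold lower with PI103 than with PD0325901 (log2 -1.59, SE 0.258, adjusted p = 2.24e-05). It was 4.85-fold higher with PD0325901 than with oxozeaenol (log2 2.28, SE 0.268, adjusted p = 1.74e-06). These directions held in 4 of 4 batches. PI103 against oxozeaenol gave a smaller difference of 0.68 (SE 0.265, adjusted p = 0.0407), and that call was lost in 9 of 28 alternatives, 7 of them leaving out 1 library, with an adjusted p of up to 0.09925 without replicate 1 of PI103.

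APOD encodes a lipocalin that binds small lipids and travels partly with high-density lipoprotein. The gene lies at chr3:195568702-195584205 on the minus strand. Control libraries held 2.77, 3.11, 3.12 and 3.41 CPM, PI103 libraries 7.21, 6.69, 5.78 and 6.07 CPM and PD0325901 libraries 28.6, 44.1, 31.3 and 28.8 CPM. With oxozeaenol APOD had 17.5, 16.8, 15.2 and 17.8 CPM, between the other single agents and without overlap with either. The combination with oxozeaenol gave 16.9, 13.6, 15.3 and 14.4 CPM and that with PD0325901 gave 25.7, 45.0, 20.8 and 24.7 CPM. The 3 single agents differed from each other in all 3 comparisons. APOD was 5.15-fold lower with PI103 than with PD0325901 (log2 -2.36, SE 0.177, adjusted p = 1.51e-10) and 2.61-fold lower than with oxozeaenol (log2 -1.38, SE 0.175, adjusted p = 7.84e-07). It was 1.97-fold higher with PD0325901 than with oxozeaenol (log2 0.98, SE 0.168, adjusted p = 0.000155).

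APOE and APOC1 are neighbours on chromosome 19, at chr19:44905754-44909393 and chr19:44914247-44919349 on the plus strand, 4853 bp apart. APOH (beta-2-glycoprotein I), a plasma protein that binds anionic phospholipids, is on chromosome 17. A stretch before 1 start of APOE is shown because APOE, at low levels, separated PI103 from both other agents. A RefSeq promoter table (GRCh38.p14) held windows for 4 of the 10 members, these 3 genes and APOM. It held more than 1 window for APOE, and only the most upstream was used. Shown is the part of the 250 bases before its RefSeq start that no annotated exon of the gene covers, chr19:44905546-44905753 on the plus strand. Capitals mark GC boxes (GGGCGG on either strand).
APOE promoter: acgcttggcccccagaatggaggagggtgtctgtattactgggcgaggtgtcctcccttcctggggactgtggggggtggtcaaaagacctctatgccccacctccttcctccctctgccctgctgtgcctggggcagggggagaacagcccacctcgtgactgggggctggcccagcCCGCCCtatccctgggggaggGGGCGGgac
At least 1 GC box occurs in 36.7% of 35116 RefSeq windows cut to the length of the stretch shown, 208 bases. The stretch itself is 67.3% G or C and holds 2 GC boxes. Searched on both strands, it holds none of the nuclear receptor half-site AGGTCA, the AP-1 site TGACTCA, the E-box CACGTG, the forkhead site GTAAACA, the TATA box TATAAA or its variant TATAAT. In windows of that length these letters occur in 10.19%, 3.43%, 4.88%, 2.48%, 7.82% and 5.31% of all. The uncut window does hold TATAAT, 31 bases before this RefSeq start, in bases that the annotation counts as the first exon and that are not shown.

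APOE was low in control, with 0.34, 0.279, 0.232 and 0.394 CPM, and overlapped that range with PI103, with 0.338, 0.295, 0.411 and 0.549 CPM. PD0325901 libraries had 2.29, 2.94, 2.18 and 2.25 CPM and oxozeaenol libraries 2.12, 2.51, 2.1 and 2.29 CPM. These latter groups overlapped each other and lay above every control and PI103 library. APOE was 6.02-fold lower with PI103 than with PD0325901 (log2 -2.59, SE 0.291, adjusted p = 7.08e-08) and 5.64-fold lower than with oxozeaenol (log2 -2.5, SE 0.292, adjusted p = 1.88e-07). PD0325901 against oxozeaenol gave 0.09 with a 95% interval from -0.43 to 0.62 (adjusted p = 0.811). With PI103 and oxozeaenol together APOE had 1.19, 1.04, 0.712 and 1.0 CPM, 2.28-fold below oxozeaenol alone with no overlap (log2 -1.19, SE 0.267, adjusted p = 0.00357). With PI103 and PD0325901 it had 1.24, 2.6, 0.738 and 1.19 CPM, 1.68-fold below PD0325901 alone (log2 -0.74, SE 0.259, adjusted p = 0.0463). That last call was lost in 15 of 28 alternatives, and the difference lay between -0.52 without replicate 3 of the combination (adjusted p = 0.1572) and -1.19 without its replicate 2 (adjusted p = 0.0006664).

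APOC1 means were 59.2 ± 15.2 CPM (SD, n = 4) in control and 60.2 ± 16.1 CPM with PI103. They were 110 ± 24.7 CPM with PD0325901, 149 ± 42.3 CPM with oxozeaenol, 112 ± 20.6 CPM in the oxozeaenol combination and 92.1 ± 20.4 CPM in the PD0325901 combination. The control libraries ranged from 46.0 to 77.2 CPM and the oxozeaenol libraries from 98.4 to 198.0 CPM, without overlap. PI103 gave 1.82-fold less APOC1 than PD0325901 (log2 -0.86, SE 0.221, adjusted p = 0.00272) and 2.48-fold less than oxozeaenol (log2 -1.31, SE 0.223, adjusted p = 5.12e-05). The difference of PD0325901 from oxozeaenol, -0.45 (adjusted p = 0.128), became a call of -0.43 with the batch as a replicate block (adjusted p = 0.003428). The block likewise turned 2 other differences of APOC1 into calls, that of PI103 with oxozeaenol from oxozeaenol, at -0.4 (adjusted p = 0.01116), and that between the combinations, at -0.29 (adjusted p = 0.03983). Leaving out replicate 4 of PD0325901 (-0.61, adjusted p = 0.04653) or replicate 1 of oxozeaenol (-0.57, adjusted p = 0.04851) also made the first of these a call. An unnamed transcript on the same strand, AC011481.3, covers 43.2% of the APOC1 exon length. Whether reads there were counted for APOC1, for that transcript or set aside as ambiguous is not known. The counter and annotation are not given in the sources used here.

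APOH counts per library were 1, 2, 6 and 2 in control, 1, 6, 4 and 1 with PI103, 19, 44, 48 and 28 with PD0325901 and 14, 48, 11 and 15 with oxozeaenol. The combinations had 23, 5, 11 and 8 counts with oxozeaenol and 21, 28, 17 and 13 counts with PD0325901. The mean was 0.0382 CPM in control, 0.051 with PI103, 0.559 with PD0325901 and 0.369 with oxozeaenol, and 0.182 and 0.31 CPM in the oxozeaenol and PD0325901 combinations. The libraries of control and PI103 overlapped. Every PD0325901 and oxozeaenol library lay above both.

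APOM, which carries sphingosine-1-phosphate on high-density lipoprotein, had group means between 1.10 CPM with PD0325901 and 1.57 CPM with PI103 and oxozeaenol. Control libraries ranged from 1.16 to 1.41 CPM, and the libraries of each treatment overlapped them. Of 10 tests APOM passed 1, PI103 against PD0325901 (log2 0.47, SE 0.192, adjusted p = 0.048), and that call was lost in 20 of 28 alternatives, with an adjusted p of up to 0.1515 without replicate 2 of PI103. Exons of BAG6 on the opposite strand cover 8.19% of the APOM exon length.

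**Figure D2:**
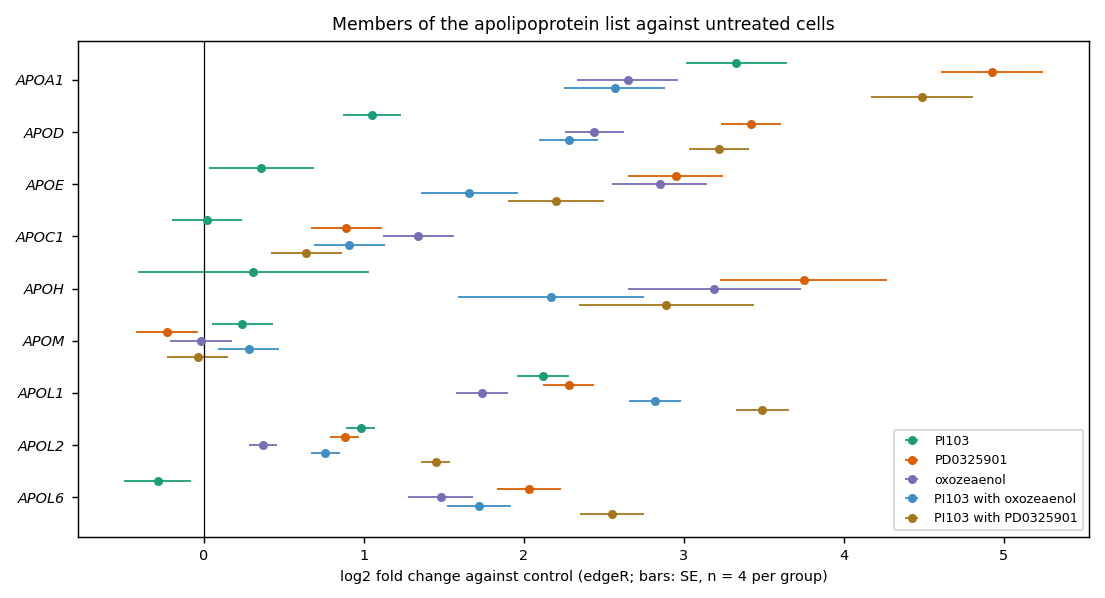
Log2 difference of each treatment from control for the 9 testable members, with the standard error of the edgeR fit as bars, n = 4 per group. These contrasts chose the list and are shown as a description: the span is 2.57 to 4.93 for APOA1, 1.05 to 3.42 for APOD, 0.37 to 1.45 for APOL2 and -0.23 to 0.28 for APOM.

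The 3 APOL genes lie on chromosome 22. APOL1 (chr22:36253010-36267530, plus strand) and APOL2 (chr22:36226203-36239954, minus strand) are 13055 bp apart, and APOL6 (chr22:35648395-35668409, plus strand) is 557793 bp from APOL2. APOL1 had 3.27, 2.96, 2.92 and 2.26 CPM in control and 14.5, 11.8, 12.8 and 10.3 CPM with PI103. The values were 12.8, 16.7, 14.1 and 11.8 CPM with PD0325901 and 10.9, 8.1, 9.71 and 9.3 CPM with oxozeaenol. In the combinations APOL1 had 23.6, 17.0, 23.1 and 16.5 CPM with oxozeaenol and 36.5, 36.3, 30.8 and 24.1 CPM with PD0325901. Every library of the PD0325901 combination lay above every library of each other group. PI103 and PD0325901 alone overlapped (log2 -0.16, 95% interval -0.47 to 0.15, adjusted p = 0.399). APOL1 with PD0325901 was 1.46-fold above oxozeaenol (log2 0.54, SE 0.151, adjusted p = 0.00928). PI103 was 1.3-fold above oxozeaenol (log2 0.38, SE 0.151, adjusted p = 0.044), a call lost in 12 of 28 alternatives, with an adjusted p of up to 0.16 without replicate 1 of PI103.

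APOL2 followed the same outer order, with the lowest treated mean in oxozeaenol and the highest in PI103 with PD0325901, over a narrower range. Means were 16.1 ± 1.05 CPM (SD, n = 4) in control, 31.7 ± 2.15 CPM with PI103, 29.5 ± 3.97 CPM with PD0325901 and 20.8 ± 0.973 CPM with oxozeaenol. The combinations had 27.3 ± 2.27 CPM with oxozeaenol as partner and 44 ± 2.88 CPM with PD0325901. PI103 and PD0325901 overlapped (log2 0.1, 95% interval -0.08 to 0.28, adjusted p = 0.367). Both exceeded oxozeaenol, PI103 by 0.61 (SE 0.0894, adjusted p = 5.3e-06) and PD0325901 by 0.51 (SE 0.0894, adjusted p = 0.000181).

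APOL6 separated the agents in another way. Its control values of 1.13, 1.47, 1.58 and 1.47 CPM overlapped the PI103 values of 1.26, 1.13, 0.994 and 1.24 CPM. PD0325901 libraries held 5.76, 8.71, 4.34 and 4.34 CPM and oxozeaenol libraries 3.93, 4.26, 3.21 and 4.39 CPM, all above both. The combinations held 4.56, 5.31, 4.68 and 4.15 CPM with oxozeaenol and 8.06, 11.3, 7.0 and 6.85 CPM with PD0325901. APOL6 was 4.98-fold lower with PI103 than with PD0325901 (log2 -2.32, SE 0.206, adjusted p = 1.31e-09) and 3.42-fold lower than with oxozeaenol (log2 -1.77, SE 0.206, adjusted p = 1.71e-07). PD0325901 exceeded oxozeaenol by 0.54 (SE 0.189, adjusted p = 0.0326), a call lost without replicate 2 of PD0325901 (0.3, adjusted p = 0.2425) or replicate 3 of oxozeaenol (0.46, adjusted p = 0.1015).

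Of the 8 members without APOH, those with all 4 libraries above all 4 of control numbered 4 with PI103, where 24.8% of all genes did so, 7 with PD0325901 (24.1% of all genes) and 7 with oxozeaenol (20.2%). They numbered 7 in the oxozeaenol combination (25.8%) and 6 in the PD0325901 combination (28.1%). Nothing is read from these counts, since the members were chosen on these contrasts. Among the single agents, PI103 differed from PD0325901 for 6 of the 8, 1 higher and 5 lower, where 44.5% of all genes were called, 21.7% higher and 22.9% lower. From oxozeaenol it differed for 7, 3 higher and 4 lower, where 43.1% were called, 20.6% higher and 22.5% lower. PD0325901 differed from oxozeaenol for 5, all 5 higher, where 28.5% were called and 15.1% were called higher. The median difference of the 8 was -1.23, -0.52 and 0.52 in these 3 comparisons, against 0.01, -0.02 and -0.01 for all genes. APOA1, APOD, APOE, APOC1 and APOL6 were each lower with PI103 than with PD0325901, and all of these but APOA1 were also lower than with oxozeaenol.

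The combinations address whether 2 agents, each at 50% of its single concentration, gave a level other than either agent alone. PI103 with PD0325901 exceeded PI103 alone for 7 of the 8 members, where 38.7% of all genes were called and 18.8% were called higher. The largest of these were APOL6 at 2.84 (SE 0.207, adjusted p = 1.08e-10) and APOD at 2.17 (SE 0.176, adjusted p = 1.09e-09). The smallest but for APOL2 was APOC1 at 0.61 (adjusted p = 0.0311), lost in 7 of 28 alternatives, with an adjusted p of up to 0.09953 without replicate 4 of the combination. Against PD0325901 alone 4 members were called, 3 higher and 1 lower, where 18.1% of all genes were called, 8.06% higher and 10.0% lower. APOL1 was 2.31-fold higher (log2 1.21, SE 0.149, adjusted p = 4.86e-06) and APOL2 1.49-fold higher (log2 0.57, SE 0.0885, adjusted p = 7.19e-05). APOL6 was higher by 0.52 at the threshold (adjusted p = 0.04999), lost in 22 of 28 alternatives, with 0.34 without replicate 2 of the combination (adjusted p = 0.2014) and 0.77 without replicate 2 of PD0325901 (adjusted p = 0.002117), and APOE was lower as given above. APOA1 differed by -0.44 (95% interval -0.95 to 0.07, adjusted p = 0.227) and APOD by -0.19 (95% interval -0.53 to 0.15, adjusted p = 0.444). Without replicate 2 of the combination both became calls below PD0325901 alone, APOA1 at -0.81 (adjusted p = 0.01023) and APOD at -0.48 (adjusted p = 0.008117). Without replicate 2 of PD0325901 they were -0.14 (adjusted p = 0.7093) and -0.04 (adjusted p = 0.8919).

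PI103 with oxozeaenol differed from PI103 alone for 6 of the 8 members, 5 higher and 1 lower, where 18.3% of all genes were called, 9.39% higher and 8.92% lower. APOL6 was 4.03-fold higher (log2 2.01, SE 0.205, adjusted p = 7.55e-08) and APOD 2.34-fold higher (log2 1.23, SE 0.174, adjusted p = 1.53e-05). APOE was higher by 1.3 (adjusted p = 0.00256), APOC1 by 0.89 (adjusted p = 0.00592) and APOL1 by 0.7 (adjusted p = 0.00138). APOA1 was the lower one, at -0.76 (SE 0.264, adjusted p = 0.0475), lost in 17 of 28 alternatives, with an adjusted p of up to 0.1186 without replicate 1 of PI103. Against oxozeaenol alone 3 members were called, 2 higher and 1 lower, where 14.9% of all genes were called, 7.59% higher and 7.28% lower. They were APOE as given above, APOL1 at 1.08 (SE 0.151, adjusted p = 3.11e-05) and APOL2 at 0.39 (SE 0.0894, adjusted p = 0.00413). APOA1 differed from oxozeaenol alone by -0.08 (95% interval -0.63 to 0.48, adjusted p = 0.888).

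**Figure D3:**
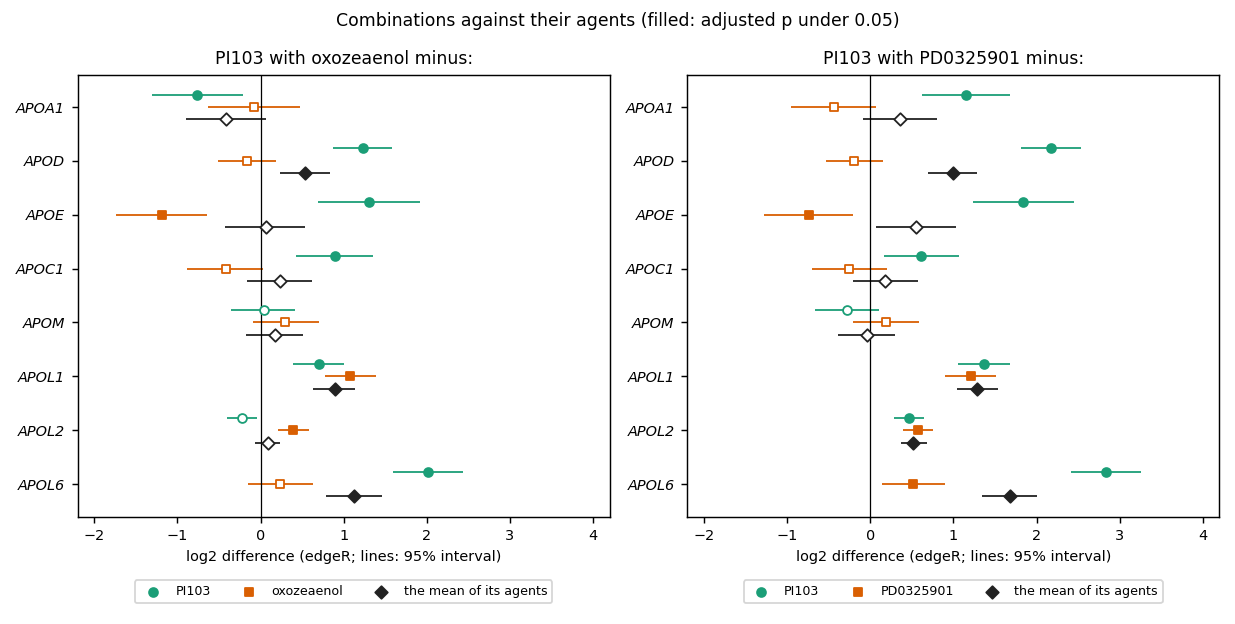
Log2 difference of each combination from PI103 alone, from its partner alone and from the mean of both on the log2 scale, for 8 members (APOH left out), with 95% intervals of the edgeR fit, n = 4 per group; filled symbols have an adjusted p under 0.05. APOL1 lies above all 3 references in both panels, and APOE lies below the partner alone in both.

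The partner of PI103 mattered for 5 members, all higher with PD0325901 than with oxozeaenol, where 29.9% of all genes were called and 14.3% were called higher. APOA1 was 3.76-fold higher (log2 1.91, SE 0.265, adjusted p = 1.37e-05) and APOD 1.93-fold higher (log2 0.95, SE 0.168, adjusted p = 0.000183). APOL6, APOL2 and APOL1 were higher by 0.83, 0.69 and 0.67, with adjusted p-values of 0.00155, 3.59e-06 and 0.00121. APOE differed by 0.54 (95% interval -0.01 to 1.09, adjusted p = 0.133) and lay between 0.09 without replicate 2 of PI103 with PD0325901 (adjusted p = 0.8338) and 0.76 without its replicate 3, then a call (adjusted p = 0.02731).

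A further reference was the mean of the 2 single agents on the log2 scale. It is the level to be had if each log2 effect were proportional to concentration and the effects added. No library held a single agent at the lower concentration used in the combinations. Whether a level above the mean reflects the dose response of a single agent or a joint effect was thus not tested. Above this mean lay 4 members for PI103 with PD0325901, where 22.0% of all genes were called and 10.8% were called higher. APOL6 exceeded the mean 3.2-fold (log2 1.68, SE 0.159, adjusted p = 3.82e-08), APOL1 2.44-fold (log2 1.29, SE 0.123, adjusted p = 4.87e-08), APOD 1.99-fold (log2 0.99, SE 0.141, adjusted p = 2.64e-05) and APOL2 1.44-fold (log2 0.52, SE 0.075, adjusted p = 2.23e-05). For PI103 with oxozeaenol 3 lay above it, where 3.98% of all genes were called and 2.88% were called higher. These were APOL6 at 1.12 (SE 0.164, adjusted p = 8.78e-05), APOL1 at 0.89 (SE 0.125, adjusted p = 6.11e-05) and APOD at 0.53 (SE 0.145, adjusted p = 0.0353). The APOD call was lost in 9 of 28 alternatives, with an adjusted p of up to 0.183 without replicate 1 of PI103 with oxozeaenol. APOA1 differed from the mean by 0.36 with PD0325901 (95% interval -0.09 to 0.8, adjusted p = 0.239). Without replicate 2 of PD0325901 this was 0.52 and a call (adjusted p = 0.04791), and without replicate 2 of the combination it was -0.02 (adjusted p = 0.9675). APOA1 with oxozeaenol differed by -0.42 (95% interval -0.9 to 0.07, adjusted p = 0.4). For APOE the PD0325901 combination gave 0.55 (adjusted p = 0.0895), between 0.1 without its replicate 2 (adjusted p = 0.7931) and 0.77 without its replicate 3, then a call (adjusted p = 0.01666).

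Other genes of the pathway, which are not members, were compared with control. Their lists were drawn up with earlier results of these data known. The counts and adjusted p-values below are thus not independent of that choice. Over all 13947 genes, the shares called, called higher and called lower were 51.4%, 26.2% and 25.2% with PI103, 58.6%, 28.7% and 29.9% with PD0325901, and 51.9%, 25.7% and 26.1% with oxozeaenol. They were 55.6%, 27.7% and 27.9% in the oxozeaenol combination and 64.8%, 32.2% and 32.6% in the PD0325901 combination, and the counts below are read beside these. Genes with under 10 counts in every control library passed the filter through treated groups and are left out of the counts. Of 17 further apolipoprotein genes 7 passed the filter, 5 were counted and 3 had 0 counts in every library. Called higher and lower among the 5 were 0 and 1 with PI103, 3 and 1 with PD0325901, 3 and 0 with oxozeaenol, 1 and 1 in the oxozeaenol combination, and 3 and 1 in the PD0325901 combination. APOC3, an inhibitor of lipoprotein lipase that neighbours APOA1 and was picked out after its values were seen, had 0 counts in the 4 control libraries. It is described without a test. The APOC3 mean was 0.0801 CPM with PI103, 0.704 with PD0325901 and 0.109 with oxozeaenol. In the oxozeaenol and PD0325901 combinations it was 0.0678 and 0.287 CPM. APOA2, the second protein of high-density lipoprotein, rose from 3.09 ± 0.886 CPM (SD, n = 4) to 13.5 ± 2.9 CPM with PD0325901 (log2 2.12, SE 0.275, adjusted p = 5.28e-07). With PI103 its log2 difference was -0.16 (adjusted p = 0.664). CLU, an extracellular chaperone also called apolipoprotein J, rose in 4 treatments, most with oxozeaenol (log2 0.98, SE 0.116, adjusted p = 1.21e-07), and differed by 0.14 with PI103 (adjusted p = 0.318). APOO, a mitochondrial protein despite its name, fell in 4, most with PI103 and PD0325901 (log2 -0.8, SE 0.109, adjusted p = 5.57e-07), and differed by 0.02 with oxozeaenol (adjusted p = 0.884). APOL3, also picked out after its values were seen, had 1 to 5 counts per control library and is described without a test. Its mean was 0.0409 CPM in control, 0.299 with PI103, 0.708 with PD0325901 and 0.34 with oxozeaenol, and 0.874 and 1.52 CPM in the oxozeaenol and PD0325901 combinations.

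Among lipoprotein receptors and their regulators, 14 of 18 passed the filter and 12 were counted. Called higher and lower were 7 and 2 with PI103, 7 and 3 with PD0325901, 7 and 1 with oxozeaenol, 7 and 2 in the oxozeaenol combination, and 8 and 3 in the PD0325901 combination. MYLIP, a ubiquitin ligase induced by sterols, rose in all 5, by 0.44 with PI103 (adjusted p = 0.000137) to 1.0 with PD0325901 (adjusted p = 3.24e-10). LRP1, a large receptor that also binds APOE, rose in all 5, from 15.0 ± 2.46 CPM in control to 64.6 ± 9.14 CPM with PI103 and PD0325901 (log2 2.1, SE 0.163, adjusted p = 6.13e-11).

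Of 25 genes of lipoprotein assembly, lipid efflux and remodelling 13 passed the filter and 12 were counted. With PI103, 3 were higher and 5 lower than control, beside 26.2% and 25.2% of all genes. The other 4 treatments had 8 higher and 1 or 2 lower, beside 25.7% to 32.2% and 26.1% to 32.6% of all genes. The median was -0.08 with PI103 and 0.44 to 0.57 with the others. MIA2, which serves the export of lipoprotein particles from the endoplasmic reticulum, fell with PI103 (log2 -0.93, SE 0.239, adjusted p = 0.00214). It rose with PD0325901 (log2 2.63, SE 0.22, adjusted p = 2.31e-10) and in the other 3 treatments. LIPG, the endothelial lipase that acts on high-density lipoprotein, fell in all 5, most with oxozeaenol (log2 -1.43, SE 0.1, adjusted p = 1.87e-11). BMP1, a protease that cleaves the APOA1 propeptide, rose in all 5, most with PI103 and PD0325901 (log2 1.25, SE 0.11, adjusted p = 3.09e-10). ABCA1, picked out after its values were seen, fell with PI103 (log2 -1.18, SE 0.259, adjusted p = 0.000549) and rose with PD0325901 (log2 1.12, SE 0.248, adjusted p = 0.00044) and oxozeaenol (log2 0.89, SE 0.248, adjusted p = 0.00462).

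Among 32 transcription factors and cofactors linked to these genes 30 passed the filter and 29 were counted. Called higher and lower were 14 and 9 with PI103, 15 and 8 with PD0325901, 11 and 10 with oxozeaenol, 12 and 8 in the oxozeaenol combination, and 17 and 8 in the PD0325901 combination. The 3 named by size of change fell in all 5. EGR1, an immediate early gene downstream of ERK, had 201.0 ± 50.4 CPM (SD, n = 4) in control and 1.64 ± 0.722 CPM with PD0325901 (log2 -6.94, SE 0.553, adjusted p = 2.04e-09), and fell by 3.9 with PI103 (adjusted p = 7.59e-07). CEBPB fell in all 5, by 2.16 to 3.53, and NR1D1, the clock repressor REV-ERB alpha, by 1.37 to 2.34. HNF4A, the hepatic and intestinal regulator of many apolipoprotein genes and chosen after its values were seen, rose by 0.56 with PI103 (adjusted p = 0.000178) and 0.35 with PD0325901 (adjusted p = 0.00923), and differed by 0.08 with oxozeaenol (adjusted p = 0.562).

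Of 16 interferon response genes, listed because the APOL family responds to interferon, 14 were testable. Called higher and lower were 12 and 0 with PI103, 13 and 1 with PD0325901, 9 and 1 with oxozeaenol, 12 and 1 with PI103 and oxozeaenol, and 13 and 0 with PI103 and PD0325901. The list's median was 0.68, 1.03, 0.68, 0.91 and 1.49, against -0.02 to 0.02 for all genes. TLR3, a receptor for double-stranded RNA, rose most with PI103 and PD0325901 (log2 3.39, SE 0.242, adjusted p = 7.86e-12). IFI6 rose by 1.1 to 2.2 and IFIT1 by 0.9 to 2.12 over the 5 treatments. Against the mean of its agents, PI103 with PD0325901 had 11 of the 14 higher and 0 lower, with a median of 0.62, where 10.8% of all genes were called higher. TLR3 exceeded that mean by 1.22 (adjusted p = 2.61e-05), IFIT1 by 0.97 (adjusted p = 1.91e-07) and IFI6 by 0.58 (adjusted p = 0.000384). Of the members, APOL6, APOL1, APOD and APOL2 exceeded it by 1.68, 1.29, 0.99 and 0.52. With PI103 alone APOL6 differed from control by -0.29, where 12 of the 14 interferon genes were called higher. A link between the interferon genes and the members was not tested.

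Genes flanking the members on their chromosomes were counted as well. Of 9 testable neighbours 1 or 2 were called higher and 2 to 6 lower in each treatment, 3 to 7 in all, beside 51.4% to 64.8% of all genes called. TOMM40, next to APOE, fell in 4 treatments, most with PI103 and PD0325901 (log2 -1.22, SE 0.145, adjusted p = 6.71e-08). PVRL2 in the same cluster rose in all 5, by 0.37 to 0.7. PAFAH1B2, near APOA1, fell in 4, by 0.34 to 0.53, and differed by -0.14 with PI103 (adjusted p = 0.173).

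The genes whose log2 CPM followed APOA1 most closely over the 24 libraries were CLIC3 (Pearson r = 0.969), FZD2 (0.964), TBC1D17 (0.956), VWA7 (0.956) and OPRL1 (0.956). The correlation reached 0.9 for 128 of 13938 genes compared. It is a description over libraries that share 6 groups. With the group means removed r was 0.514 to 0.811 for these 5 genes. Among the members APOD was nearest to APOA1 (r = 0.858, and 0.784 with the group means removed), followed by APOL2 (0.813 and 0.193) and APOL1 (0.799 and 0.238). APOM had r = -0.245 with APOA1. The highest value between 2 members was that of APOD and APOL6 (0.906, and 0.753 with the group means removed), next to that of APOL1 and APOL2 (0.903 and 0.681).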

How the data were processed

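RNA of 24 AGS libraries was measured as read counts per gene symbol. Per the labels, a stranded mRNA kit was used on 0.8 µg of total RNA, and the submitters' processing notes name the build GRCh38. The authors deposited whole-number counts. The aligner, counter and annotation are not given in the sources used here. Reads with no feature (4.24% to 8.57% of a library), ambiguous (1.57% to 2.01%) or without a unique alignment (4.64% to 6.06%) stayed out of library sizes and tests. No column of per-sample values was left unused.

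Groups were read from the sample titles. Low genes were removed with filterByExpr, TMM factors scaled the libraries, and edgeR 4.0.16 (R 4.3.3) fitted the model (robust quasi-likelihood F test, two-sided, 1 coefficient per group over 24 libraries, common biological coefficient of variation 0.131). A call is an adjusted p under 0.05, Benjamini-Hochberg over 13947 genes. SE is the absolute log2 difference divided by the square root of F. APOH, and listed genes with under 10 counts in every control library, were kept out of counts of calls after their values were seen. The code was tested on simulated data. Correlations used log2 CPM with a prior count of 2. Positions and exon lengths are from GENCODE 29.

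The members and gene lists were chosen with earlier results of these data known. Named were all members, at most 3 genes per list (the largest mean absolute log2 difference over the 5 treatments among called genes with a mean of at least 1 CPM), the 5 genes most correlated with APOA1, and others marked in the text. One gene that this rule names is not reported here.

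Batch numbers in the labels pair the samples. Deviations from group means had a mean correlation of 0.12 over 60 same-numbered pairs, 28 of them over 0.1, and -0.039 over 180 others. Of the libraries, 19 correlated best on average with those of their own number in other groups. Alternatives were DESeq2 size factors, no low-count filter, the DESeq2 1.42.0 Wald test, a replicate block, and leaving out each library. No libraries were identical.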

Additional observations from a re-analysis of the deposited data

Results flagged for a closer look

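In 52 sets of 4 libraries, each 1 gene in 1 group, the highest and lowest values were screened for a gap to the other 3. The limit was Dixon's 95% critical value for 4 values, which chance passes in about 1 in 20 independent sets, and 6 passed. The sets share the same 24 libraries and are not independent. For APOC1, replicate 4 of PI103 had 84.2 CPM against 49.9 to 54.3 in the others, and replicate 4 of PI103 with oxozeaenol had 142 CPM against 97.6 to 104. For APOE, replicate 2 of PD0325901 had 2.94 CPM against 2.18 to 2.29. For APOH, replicate 2 of oxozeaenol had 0.657 CPM against 0.244 to 0.312, and replicate 2 of PI103 with PD0325901 had 0.47 CPM against 0.246 to 0.263. For APOL2, replicate 1 of PI103 with oxozeaenol had 30.6 CPM against 25.8 to 26.5.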

How the results depend on the processing

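Of 80 tests of the 8 members among treated groups 50 were called, 41 of them in each of 28 alternatives, and 9 lost the call in at least 1, as given beside each value above. Of the 30 others 8 gained a call somewhere. The replicate block changed no member's call other than the 3 of APOC1 given above. It raised the genes called in all 15 comparisons, those with control included. For PI103 with oxozeaenol against the mean of its agents they rose from 555 to 997, and for PD0325901 against oxozeaenol from 3976 to 5067. The shares of all genes given above are those without the block. Without the low-count filter 2 members were called for PI103 with PD0325901 against PD0325901, in place of 4. Leaving out 1 library gave 2 to 5 there, and 1385 to 3113 of all genes. The same omissions gave 2385 to 4282 genes for PD0325901 against oxozeaenol, 1050 to 2571 for PI103 with oxozeaenol against oxozeaenol and 232 to 781 against the mean of its agents. They gave 2702 to 4477 genes between the combinations and 1466 to 3977 for PI103 with PD0325901 against the mean of its agents. Signs turned in uncalled tests when 1 library was left out. Against the mean of its agents, PI103 with PD0325901 gave -0.02 (without its replicate 2) to 0.52 (without replicate 2 of PD0325901) for APOA1 and -0.11 to 0.03 for APOM, and PI103 with oxozeaenol gave -0.05 to 0.18 for APOE. PI103 with oxozeaenol against PI103 gave -0.05 to 0.13 for APOM. The cause was not tested. Depth limits APOB, with 5 counts in all, and APOH, with 1 to 6 counts in each control and PI103 library.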
